A study of Mus musculus with 24 samples.

Results

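The genes described here are 34 genes of the colon epithelium, read on arrays of colon fibroblasts that had been sorted away from that epithelium. They were taken by symbol from a list of known epithelial genes, with the brightest probe set kept for each, and all 34 were measured among 30827 genes with 1 symbol. Tmigd1 was selected on its lower level after Apc loss in these arrays, so its differences between genotypes are given as a description and without a test. The other 33 genes are markers of the tissue.

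The lining of the colon is a single sheet of epithelial cells held together by E-cadherin, claudins and Epcam and stiffened by keratins 8, 18 and 19. Its cells are renewed from stem cells at the crypt base, where Wnt signalling is strong. As they climb the crypt they turn into absorptive colonocytes, which take up salt and water and make bicarbonate, or into goblet cells, which secrete mucus. Apc is the brake on Wnt signalling, and its loss keeps colon epithelial cells in a crypt-like state and starts adenomas. Indian hedgehog (Ihh) is the Hedgehog ligand that differentiated colonocytes send to the fibroblasts below them.

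The 24 arrays hold 9 samples of the genotype Villincre-ERT2-ZsGreen-IhhKO-ApcKO (IhhKO_ApcKO below), 8 of Villincre-ERT2-ZsGreen-IhhWT-ApcKO (ApcKO) and 7 of Villincre-ERT2-ZsGreen-IhhWT-ApcWT (WT). All 3 groups, WT included, carry Villincre-ERT2, a Cre recombinase that is switched on by induction and driven by Villin, a gene of the intestinal epithelium, together with ZsGreen, a fluorescent protein. The deletions of Ihh and Apc are thus driven in epithelial cells, while the cells read on the arrays are fibroblasts. The sorted cells were Epcam-CD45-CD31-gp38+, that is, positive for podoplanin and negative for the surface markers of epithelium, leukocytes and endothelium. RNA was amplified before hybridisation, and the age and sex of the mice are not given in the labels. Sample codes carry a letter whose meaning is not given: A for all WT arrays, B for the ApcKO arrays except A9, and C for the IhhKO_ApcKO arrays except B9. Nothing in the labels says that each array is a separate mouse, so p-values measure the spread between these samples, which may be partly technical.

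Levels are RMA values on a log2 scale, on which 1 unit is a doubling of the signal. Array medians lay between 4.96 and 5.14, and pairs of arrays correlated at 0.969 to 0.993 over all transcript clusters. Antigenomic background probe sets had array medians of 2.68 to 3.15. The 5222 negative control probe sets were brighter: their median was 4.65, and 8.21 marked their 95th percentile. The median gene lay at 5.605. Aqp8 (mean 5.06 over the 24 arrays), Cdx1 (5.06), Slc26a3 (5.27) and Cdx2 (5.40) were thus dim. Tmigd1 (6.835) also lay under that percentile. Level alone does not show that such genes were expressed. The 13 measured general fibroblast genes, among them collagens and the gate marker Pdpn, averaged 10.89 ± 0.14 in IhhKO_ApcKO (SD, n = 9), 10.96 ± 0.08 in ApcKO (n = 8) and 10.997 ± 0.07 in WT (n = 7). Their mean lay between 10.66 and 11.14 on every array, so the labelled cell type had its markers throughout. Ptprc, the gene of CD45, lay between 2.82 and 3.21 on every array, at the level of the background probe sets. In a sort of this kind, fewer cells of a type and less RNA per cell cannot be told apart.

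Epithelial RNA was present on the arrays, in amounts that differed widely from one array to the next. The median SD of the 34 genes over the 24 arrays was 0.688 log2 units, against 0.15 for all genes, and 29 of the 34 lay above the 95th percentile of all genes (0.324). Epcam, the adhesion molecule that the sort selected against, had a lowest, median and highest level of 4.73, 6.45 and 7.96 in IhhKO_ApcKO, 5.67, 6.92 and 8.11 in ApcKO and 5.18, 5.85 and 7.43 in WT. Its range over all arrays was 10.4-fold, and the 3 genotypes overlapped. Krt8, a keratin of simple epithelia, had a lowest, median and highest level of 5.59, 8.69 and 10.06 in IhhKO_ApcKO, 7.02, 8.95 and 10.10 in ApcKO and 6.49, 7.51 and 9.67 in WT. Arrays low in Epcam tended to be low in Krt8. The widest ranges belonged to Car1 (122-fold), the cytosolic carbonic anhydrase of colonocytes, Reg4 (48.1-fold), a secreted lectin, and Muc2 (32.4-fold), the gel-forming mucin of the colon. Cdx2, Phgr1, Aqp8, Fcgbp and Spdef were the 5 genes with an SD under the 95th percentile. The source of the epithelial RNA (whole cells, fragments or free RNA) was not tested.

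**Figure D1:**
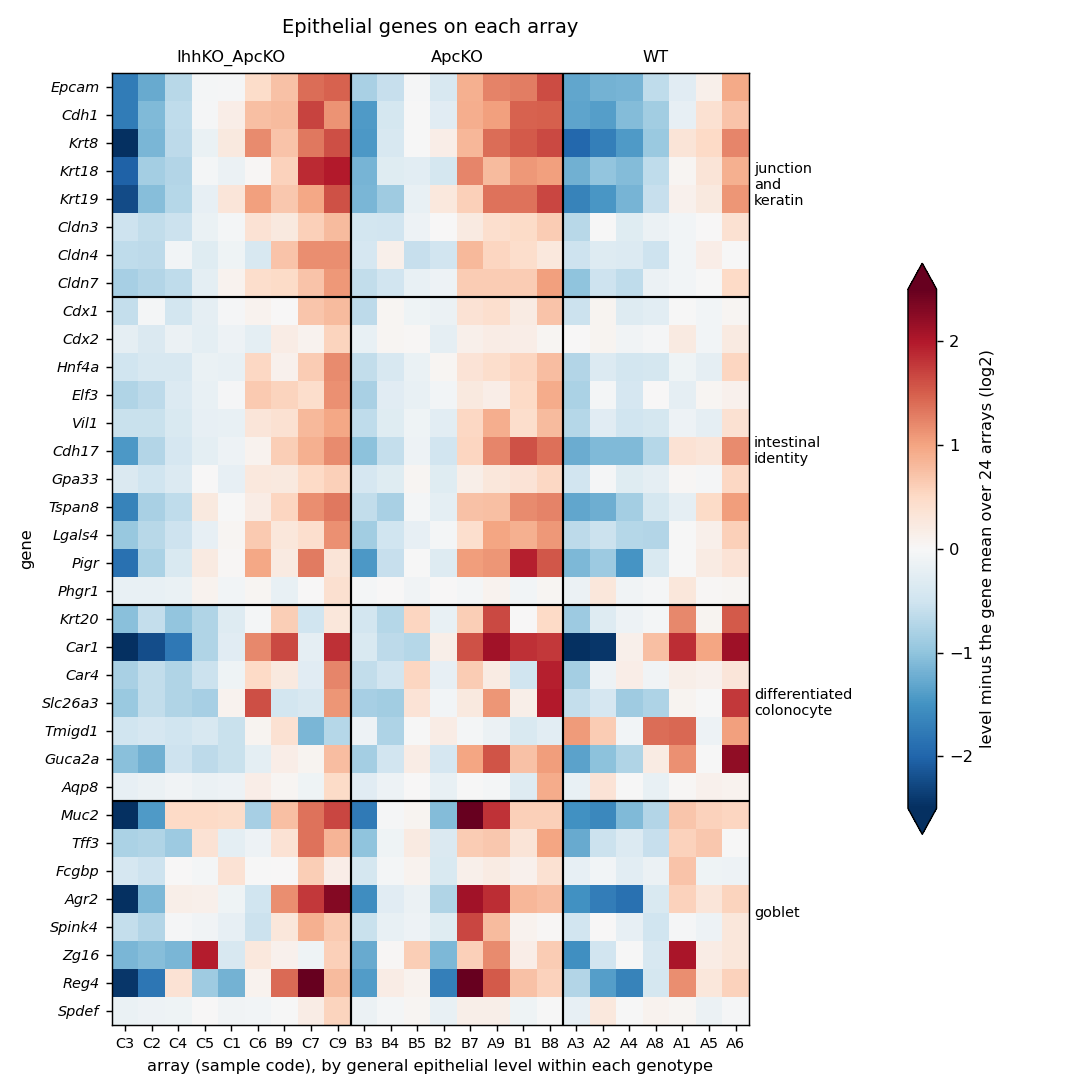
Level of each of the 34 epithelial genes (rows, by role) on each of the 24 arrays (columns, by sample code), as the log2 level minus that gene's mean over the 24 arrays, with colours saturating beyond 2.5 log2 units. Within each genotype the arrays run from low to high mean level of the 8 junction and keratin genes, and most rows change colour in the same order, while Tmigd1 follows no such order.

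The junction and keratin genes moved as 1 block. These 8 genes are Epcam, Cdh1 (E-cadherin), the keratins Krt8, Krt18 and Krt19, and the tight junction claudins Cldn3, Cldn4 and Cldn7. Among their 28 pairs the median Pearson r, after group means were removed, was 0.927. Cdh1 followed Epcam with r = 0.978 and rho = 0.977 over the 24 arrays, and Krt8 with r = 0.958 and rho = 0.977, each with an adjusted permutation p of 1.57e-05 for r over the 33 relations tested, from the smallest p that the permutations can give (1e-05). Within the genotypes the r of Krt8 with Epcam was 0.956 in IhhKO_ApcKO, 0.952 in ApcKO and 0.969 in WT, and it was 0.954 without the 2 arrays farthest from the median of Epcam (ApcKO B8 and IhhKO_ApcKO C3).

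Intestinal identity genes followed the same course. They comprise the transcription factors Cdx1, Cdx2, Hnf4a and Elf3, the microvillus protein Vil1 (villin), the intestinal cadherin Cdh17, the surface antigen Gpa33, the tetraspanin Tspan8, the lectin Lgals4 (galectin-4), the immunoglobulin transporter Pigr and the small protein Phgr1. Tspan8 had r = 0.977 and rho = 0.976 with Epcam, and Cdh17 had r = 0.961 and rho = 0.957 (adjusted permutation p = 1.57e-05 for r of both). Cdx2, a master regulator of intestinal fate, varied little and had a lower r of 0.619 (rho = 0.601, adjusted permutation p = 0.00143 for r). Phgr1 had r = 0.349 (adjusted permutation p = 0.0968) and rho = 0.461 (adjusted permutation p = 0.0265), and its r within the genotypes was 0.671 in IhhKO_ApcKO, 0.321 in ApcKO and 0.174 in WT.

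Goblet genes also followed Epcam, with lower r than the 3 keratins. Muc2 had a lowest, median and highest level of 5.93, 8.93 and 10.10 in IhhKO_ApcKO, 6.66, 8.77 and 10.95 in ApcKO and 6.82, 7.70 and 9.12 in WT. Its r with Epcam was 0.823 (rho = 0.852, adjusted permutation p = 1.57e-05 for r), and that of Agr2, a disulfide isomerase that mucin folding needs, was 0.891 (rho = 0.873, with the same adjusted permutation p). Zg16, a mucus lectin, lay at 5.53, 6.58 and 8.65 in IhhKO_ApcKO, 5.42, 7.06 and 7.87 in ApcKO and 5.14, 6.66 and 8.71 in WT, and its r was 0.556 (rho = 0.695, adjusted permutation p = 0.0051 for r). The others were the trefoil peptide Tff3, the mucus protein Fcgbp, the peptide Spink4, Reg4 and the goblet transcription factor Spdef, with r of 0.447 to 0.845. In WT alone Spdef had an r of -0.189 and Fcgbp 0.186. Pairs of goblet genes had a median r of 0.688 after group means were removed, and pairs of 1 goblet and 1 colonocyte gene 0.493, which stands as a description of how the classes varied between arrays.

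Of the 7 differentiated colonocyte genes, the 6 other than Tmigd1 had a permutation p under 0.05 with Epcam after adjustment. Guca2a, the hormone guanylin, had r = 0.782 with Epcam (rho = 0.813, adjusted permutation p = 3e-05 for r), with 0.917 in IhhKO_ApcKO, 0.937 in ApcKO and 0.906 in WT. Car1 had r = 0.796 (rho = 0.777, adjusted permutation p = 1.57e-05 for r), Slc26a3, the chloride and bicarbonate exchanger of the colon surface, 0.723 (rho = 0.775, adjusted permutation p = 5.5e-05), and Krt20, the keratin of the crypt top, 0.608 (rho = 0.653, adjusted permutation p = 0.00153). Car4, the membrane-bound carbonic anhydrase, had 0.658 (rho = 0.682, adjusted permutation p = 0.000396). Aqp8, a water channel of surface colonocytes, had 0.44 (rho = 0.461, adjusted permutation p = 0.0279 for r), which fell to 0.245 without the 2 farthest arrays and so rests on them.

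Tmigd1, a membrane protein of the immunoglobulin superfamily known from intestinal and kidney epithelium, had r = -0.229 with Epcam over the 24 arrays (rho = -0.173). That value includes the genotype difference on which the gene was chosen, so it is a description without a test. After group means were removed, the r of Tmigd1 with Epcam was -0.023. Within the genotypes its r was -0.116 in IhhKO_ApcKO, -0.022 in ApcKO and 0.085 in WT, and it was -0.302 without the 2 farthest arrays. Within the letters of the sample codes it was -0.241 for A, 0.06 for B and -0.387 for C. Its r with the 33 other genes, after group means were removed, had a median of -0.003 and ran between -0.266 and 0.345. Per log2 unit of the general epithelial level, taken per array as the mean of the 8 junction and keratin genes, Tmigd1 changed by -0.019 log2 units, Guca2a by 0.92 and Car1 by 1.93. The WT array with the lowest general level, A3, had a Tmigd1 level of 7.90, above all 17 arrays of the other 2 genotypes. So did WT A1, A2, A6 and A8 (7.47 to 8.27), while A4 (6.77) and A5 (6.71) did not. These levels are part of the difference on which the gene was chosen.

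**Figure D2:**
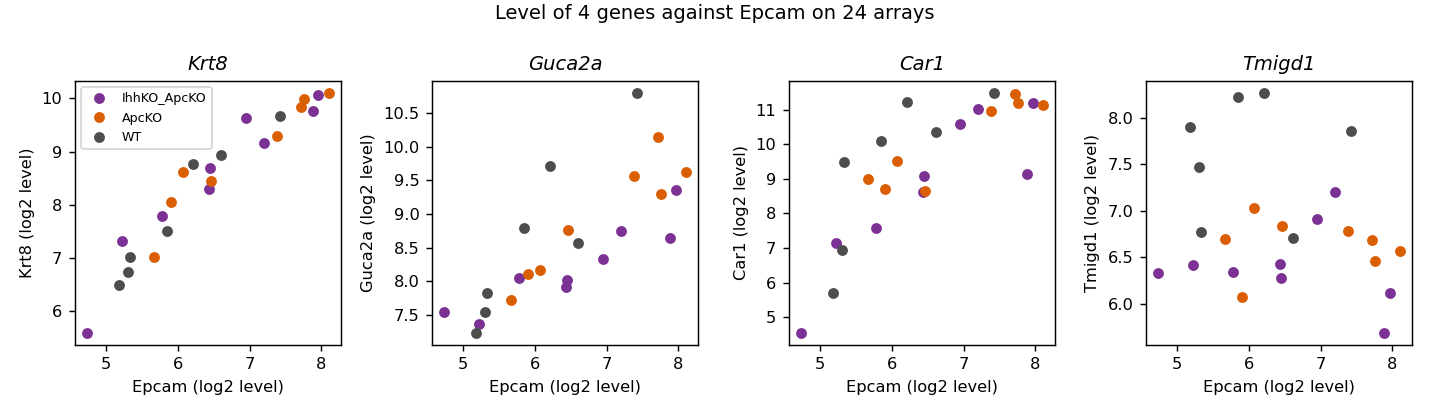
Log2 levels of Krt8, Guca2a, Car1 and Tmigd1 (vertical axes) against that of Epcam (horizontal axis), 1 point per array, coloured by genotype. Krt8, Guca2a and Car1 climb with Epcam in each genotype (r = 0.958, 0.782 and 0.796 over 24 arrays), and Tmigd1 does not (r = -0.229).

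Over all 33 relations with Epcam, the median r was 0.841 and 29 were over 0.5. Tmigd1 aside, 31 of 32 had an adjusted permutation p under 0.05 for Pearson's r, with Phgr1 the exception. For Spearman's rho 32 of 32 did. Ranked among 30826 genes by r with Epcam after group means were removed, 15 of the 33 stood among the 100 highest and 29 among the 1000 highest, while Tmigd1 stood at 17490. The 10 other genes most like Epcam by this measure were Oit1, Ehf, Ceacam1, Spint1, Prss32, Smim6, Ceacam2, Eps8l3, Dsp and Atp10b, with r of 0.98 down to 0.957 over 24 arrays. Genes of 1 array share its RNA, so these correlations are no independent evidence for each gene.

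Marker lists of other cells were set against the epithelial level in the same way. Of 10 lists related to the general epithelial level, the 20 other general epithelial genes had r = 0.955 (rho = 0.957), the 24 measured other colonocyte genes r = 0.926 (rho = 0.906) and the 15 other goblet genes r = 0.822 (rho = 0.84), each with an adjusted permutation p of 3.33e-05 for r. The 14 measured enteroendocrine and tuft genes had r = 0.597 (rho = 0.592, adjusted permutation p = 0.005). The 11 measured leukocyte genes had r = 0.547 (rho = 0.497, adjusted permutation p = 0.0094), with 0.747 in IhhKO_ApcKO, 0.478 in ApcKO and 0.218 in WT. Their mean level ran between 5.04 and 5.52 in IhhKO_ApcKO, 4.99 and 5.27 in ApcKO and 4.91 and 5.25 in WT. The 9 measured endothelial genes had r = 0.492 (rho = 0.507, adjusted permutation p = 0.0241), which was 0.333 without the 2 farthest arrays (IhhKO_ApcKO C3 and C9). The general fibroblast genes had r = -0.216 (rho = -0.29, adjusted permutation p = 0.449), which was -0.488 without the 2 farthest arrays. Their r within the genotypes was 0.031 in IhhKO_ApcKO, -0.514 in ApcKO and -0.412 in WT. The 10 mesothelial genes had r = -0.007 (rho = 0.052, adjusted permutation p = 0.975) and the 6 measured glial and neuronal genes 0.048 (rho = 0.192, adjusted permutation p = 0.917). The 17 measured crypt stem and Apc-loss genes had r = 0.176 (rho = 0.223, adjusted permutation p = 0.512). The part of these other cells in the epithelial signal was not tested.

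Promoter sequences are shown for Epcam, the gene the others were set against, for Krt20 and Slc26a3, colonocyte genes that varied with it, and for Tmigd1. The r of Tmigd1 with Epcam was -0.023 after group means were removed. RefSeq promoters (GRCm38.p6) were found for 26 of the 34 genes, with 29 starts in all, and Cdh17 had none in the table. The 250 bases before each start were searched on both strands for TTTATNG, a core read by CDX factors, and CAAAGTNCA, a core read by HNF4 factors. Capitals below mark a match, and each window is given 5′ to 3′ on the strand of its gene.
Epcam, chr17:87635729-87635978, plus strand: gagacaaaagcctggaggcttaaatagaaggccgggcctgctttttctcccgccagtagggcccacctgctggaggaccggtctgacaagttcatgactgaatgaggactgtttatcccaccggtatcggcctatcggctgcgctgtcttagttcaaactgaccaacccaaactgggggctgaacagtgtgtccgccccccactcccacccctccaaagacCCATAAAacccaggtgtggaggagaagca
Krt20, chr11:99438154-99438403, minus strand: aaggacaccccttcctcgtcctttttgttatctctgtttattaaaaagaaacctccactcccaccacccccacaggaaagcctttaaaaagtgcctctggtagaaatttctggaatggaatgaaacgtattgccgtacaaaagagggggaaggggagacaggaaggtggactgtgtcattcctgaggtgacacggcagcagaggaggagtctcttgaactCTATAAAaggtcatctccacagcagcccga
Slc26a3, chr12:31437969-31438218, plus strand: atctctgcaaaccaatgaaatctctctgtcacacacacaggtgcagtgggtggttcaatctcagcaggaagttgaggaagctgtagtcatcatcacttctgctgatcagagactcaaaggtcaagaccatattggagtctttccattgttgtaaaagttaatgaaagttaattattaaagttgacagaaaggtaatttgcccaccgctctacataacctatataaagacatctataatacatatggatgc
Tmigd1, first start, chr11:76890870-76891119, plus strand: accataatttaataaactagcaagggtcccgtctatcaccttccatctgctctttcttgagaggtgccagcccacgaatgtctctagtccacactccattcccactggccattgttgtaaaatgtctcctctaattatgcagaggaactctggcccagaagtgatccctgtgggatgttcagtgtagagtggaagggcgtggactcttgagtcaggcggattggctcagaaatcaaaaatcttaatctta
Tmigd1, second start, chr11:76901909-76902158, plus strand: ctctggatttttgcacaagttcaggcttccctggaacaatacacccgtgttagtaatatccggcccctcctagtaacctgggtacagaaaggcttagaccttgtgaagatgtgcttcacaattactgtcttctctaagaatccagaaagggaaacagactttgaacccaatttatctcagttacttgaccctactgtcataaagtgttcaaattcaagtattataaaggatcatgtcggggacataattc
The CDX-type letters were found in 3 of the 26 genes (11.5%), namely Epcam, Krt20 and Agr2, and in 3053 of 27025 genes of the table (11.3%). In Krt20 the match overlaps the letters TATAAA, and it begins 30 bases before the start, as it does 29 bases before that of Epcam. The HNF4-type letters CAAAGTNCA were found in 0 of the 26 genes and in 379 of the 27025 (1.4%). Other forms of either core were not searched, so windows without a match may still hold them. The share of genes with the CDX-type letters is close to that of the whole table, and neither Tmigd1 window holds either set of letters. Epcam and Krt20 were added to the windows shown after the matches were seen.

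The 3 genotypes were then compared, first as measured. After epithelial Apc loss most of the epithelial genes had higher means, and none passed the test. In ApcKO minus WT limma called 0 of 30827 genes (0.0%), with 1360 at an unadjusted p under 0.05, and 0 of the 33 genes other than Tmigd1, of which 0 had an unadjusted p under 0.05. The difference was positive for 29 of the 33, with a median of 0.38 log2 units, against 39.4% of all genes and a median of -0.02. Epcam averaged 6.89 ± 0.96 in ApcKO (SD, n = 8) and 5.98 ± 0.82 in WT (n = 7), a difference of 0.90 (SE 0.47, limma adjusted p = 0.97). Krt8 differed by 1.04 (SE 0.60, adjusted p = 0.97). The arrays of ApcKO and WT overlapped for Epcam and Krt8, and these differences were not told apart from the spread between arrays.

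By class, the signs of the differences were as follows. All 8 junction and keratin genes had positive differences in ApcKO minus WT (0.21 to 1.04) and in IhhKO_ApcKO minus WT (0.13 to 0.65). The 6 colonocyte genes other than Tmigd1 had 5 positive differences in ApcKO minus WT (-0.03 to 0.75), with Car1 highest at 0.75 (SE 0.89, adjusted p = 0.97; 0.15 without WT A3), and 0 positive ones in IhhKO_ApcKO minus WT (-0.57 to -0.01). Comparisons that share arrays are not independent, and ApcKO minus WT shares the WT arrays with IhhKO_ApcKO minus WT. Most of these genes also varied together between arrays, so counts of signs are no independent evidence for each gene.

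With Ihh loss added to Apc loss, 4 of the 33 genes other than Tmigd1 had a positive difference from ApcKO, again without a call. Their median was -0.21. Of all genes 56.6% had a positive difference, with a median of 0.01. In IhhKO_ApcKO minus ApcKO limma called 14 of 30827 genes (0.0454%) and 0 of the 33. These signs depend on the code letter: with the letter as a block, where the comparison rests on B9, the sign turned for 25 of the 34 genes. Car1 averaged 8.76 ± 2.13 in IhhKO_ApcKO (SD, n = 9) and 10.07 ± 1.22 in ApcKO (n = 8), a difference of -1.31 (SE 0.84, adjusted p = 1.0), or -0.79 without IhhKO_ApcKO C3. Guca2a, with lowest, median and highest levels of 7.37, 8.05 and 9.35 in IhhKO_ApcKO, 7.72, 9.03 and 10.15 in ApcKO and 7.23, 8.57 and 10.80 in WT, differed by -0.70 (SE 0.41, limma adjusted p = 1.00). For Guca2a, 8 of 9 IhhKO_ApcKO arrays lay under the ApcKO mean, and 2 under every ApcKO array.

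In IhhKO_ApcKO minus WT limma called 25 genes (0.0811%), and 0 of the 33. The count of 25 was made over all genes, Tmigd1 included, and the test of Tmigd1 itself is not given, since it was chosen on these arrays. Positive differences were found for 24 of the 33, against 44.9% of all genes, and the median difference was 0.22, against -0.01. The lowest was that of Krt20, with lowest, median and highest levels of 5.01, 5.58 and 6.69 in IhhKO_ApcKO, 5.36, 6.32 and 7.71 in ApcKO and 5.16, 6.02 and 7.60 in WT. It differed by -0.57 (SE 0.33, adjusted p = 0.73), and 7 of 9 IhhKO_ApcKO arrays lay under the WT mean. Slc26a3 lay at 4.34, 4.81 and 6.88 in IhhKO_ApcKO, 4.40, 5.48 and 7.26 in ApcKO and 4.39, 4.85 and 7.05 in WT, with a difference from WT of -0.01 (SE 0.42, adjusted p = 1.0). Aqp8 averaged 5.05 ± 0.22 in IhhKO_ApcKO (SD, n = 9), 5.06 ± 0.40 in ApcKO (n = 8) and 5.09 ± 0.18 in WT (n = 7).

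**Figure D3:**
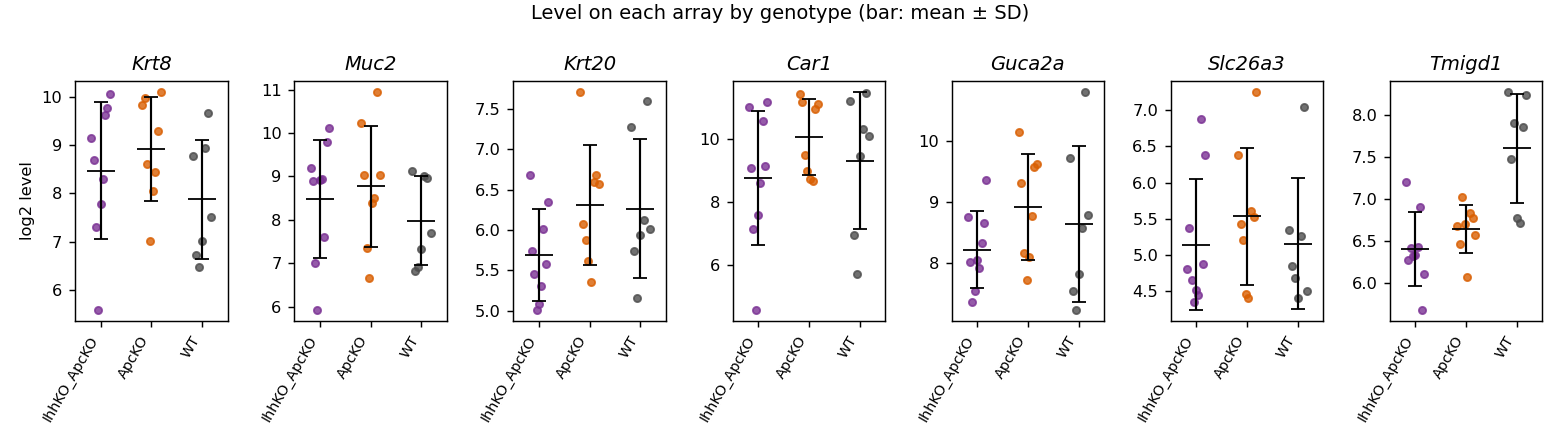
Log2 levels of Krt8, Muc2, Krt20, Car1, Guca2a, Slc26a3 and Tmigd1 on each array (points) by genotype, with the mean and SD (bars). The genotypes overlap for all 7 genes, and for Tmigd1 7 of 9 IhhKO_ApcKO arrays and 5 of 8 ApcKO arrays lie under every WT array.

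Tmigd1 had lower levels in both genotypes with Apc loss. Its lowest, median and highest levels were 5.68, 6.34 and 7.21 in IhhKO_ApcKO, 6.07, 6.69 and 7.03 in ApcKO and 6.71, 7.86 and 8.27 in WT. All 9 IhhKO_ApcKO arrays and all 8 ApcKO arrays lay under the WT mean, and 7 and 5 of them under every WT array. The difference was -1.19 log2 units in IhhKO_ApcKO minus WT and -0.96 in ApcKO minus WT, a 2.28-fold and a 1.95-fold lower signal, and the gene was chosen by its lower level in ApcKO, in arrays that share the WT samples with both differences. In IhhKO_ApcKO minus ApcKO it was -0.23 (SE 0.21), given without a test because the ApcKO arrays served in the choice of the gene. The code letters run almost with the genotypes. The 1 ApcKO array with the WT letter, A9, had 6.68, under all 7 WT arrays (6.71 to 8.27), and the 1 IhhKO_ApcKO array with the ApcKO letter, B9, had 7.21, above the 7 ApcKO arrays of that letter (6.07 to 7.03). With the letter as a block, the difference in IhhKO_ApcKO minus WT was -0.35.

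Whether colonocyte genes were lower relative to general epithelial genes was asked in 2 ways. For each array the mean of the 6 colonocyte genes other than Tmigd1 was set against the mean of the 8 junction and keratin genes. Only changes of this quantity between arrays have a meaning, since probe sets differ in brightness. It averaged -0.73 ± 0.47 in IhhKO_ApcKO (SD, n = 9), -0.40 ± 0.35 in ApcKO (n = 8) and -0.01 ± 0.33 in WT (n = 7). ApcKO thus lay 0.38 log2 units under WT, IhhKO_ApcKO 0.72 under WT and 0.34 under ApcKO. All 8 ApcKO arrays and all 9 IhhKO_ApcKO arrays were under the WT mean, 3 and 6 of them under every WT array, and the groups overlapped. Array C7 had the lowest value, -1.86, and without it the difference between IhhKO_ApcKO and ApcKO was -0.19. A9 had -0.24 among WT-lettered values of -0.46 to 0.35. This quantity can also shift with the general level itself. Per log2 unit of that level, the 6 colonocyte genes changed by 0.163 (Aqp8) to 1.93 (Car1) log2 units. The general level was 0.66 higher in ApcKO and 0.44 higher in IhhKO_ApcKO than in WT, and its share in the differences was not separated here. As a score over chosen genes this quantity was not tested.

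**Figure D4:**
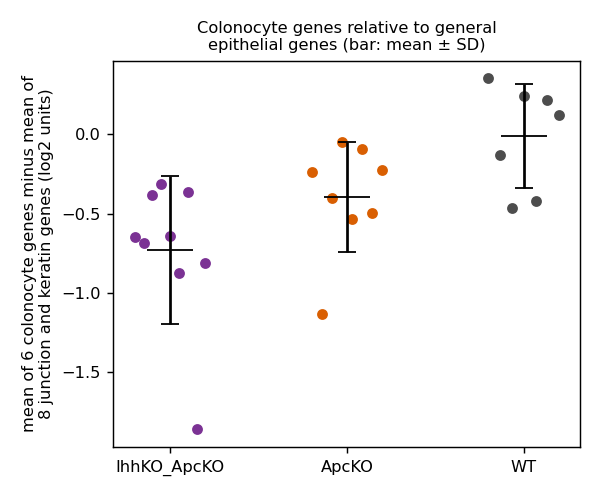
Mean log2 level of the 6 colonocyte genes minus that of the 8 junction and keratin genes on each array (points), by genotype, with the mean and SD (bars). The means are -0.73 in IhhKO_ApcKO, -0.40 in ApcKO and -0.01 in WT, with overlapping arrays.

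The second way kept each gene apart and fitted the general epithelial level as a covariate in limma, so that genotypes were compared at an equal level of the junction and keratin genes. In ApcKO minus WT, 6 of the 6 colonocyte genes then had negative differences, among them Car1 at -0.53 (SE 0.49, adjusted p = 0.84), Krt20 at -0.36 (SE 0.26, adjusted p = 0.83) and Guca2a at -0.33 (SE 0.26, adjusted p = 0.84). Their median was -0.23, against -0.03 over all genes, of which 38.4% had positive differences. Without the WT array A6 they were 5 of 6, with Krt20 at -0.19 and Guca2a at -0.04. With 1 array left out Car1 ran between -0.81 and -0.30. The identity genes had differences of -0.15 to 0.20 and the goblet genes of -0.36 to 0.02. None of the 25 genes tested passed, where 0 of 30827 did (0.0%, with 1644 at an unadjusted p under 0.05).

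In IhhKO_ApcKO minus WT, 6 of 6 colonocyte genes again had negative differences at an equal general level. That count held with each array left out, and it was 4 of 6 with the code letter as a block. Car1 was at -1.41 (SE 0.46, adjusted p = 0.34), Krt20 at -0.84 (SE 0.24, adjusted p = 0.25) and Guca2a at -0.82 (SE 0.24, adjusted p = 0.26). These 3 and Cdx2, at -0.18 (SE 0.08, adjusted p = 0.57), were the genes with an unadjusted p under 0.05 among the 25. Goblet genes ran between -0.42 (Zg16) and 0.11 (Agr2). Of all genes, limma called 17 (0.0551%), and 0 of the 25. The count of 17 was again made over all genes, Tmigd1 included, and its own test is again not given. In IhhKO_ApcKO minus ApcKO, 5 of 6 colonocyte genes had negative differences, with Car1 at -0.88 (SE 0.44, adjusted p = 0.86), and 2 of the 25 had an unadjusted p under 0.05, namely Guca2a (-0.50) and Krt20 (-0.48). There limma called 18 genes (0.0584%) and 0 of the 25. The difference of Tmigd1 was -1.18 in IhhKO_ApcKO minus WT and -0.95 in ApcKO minus WT with the covariate, close to its values as measured.

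**Figure D5:**
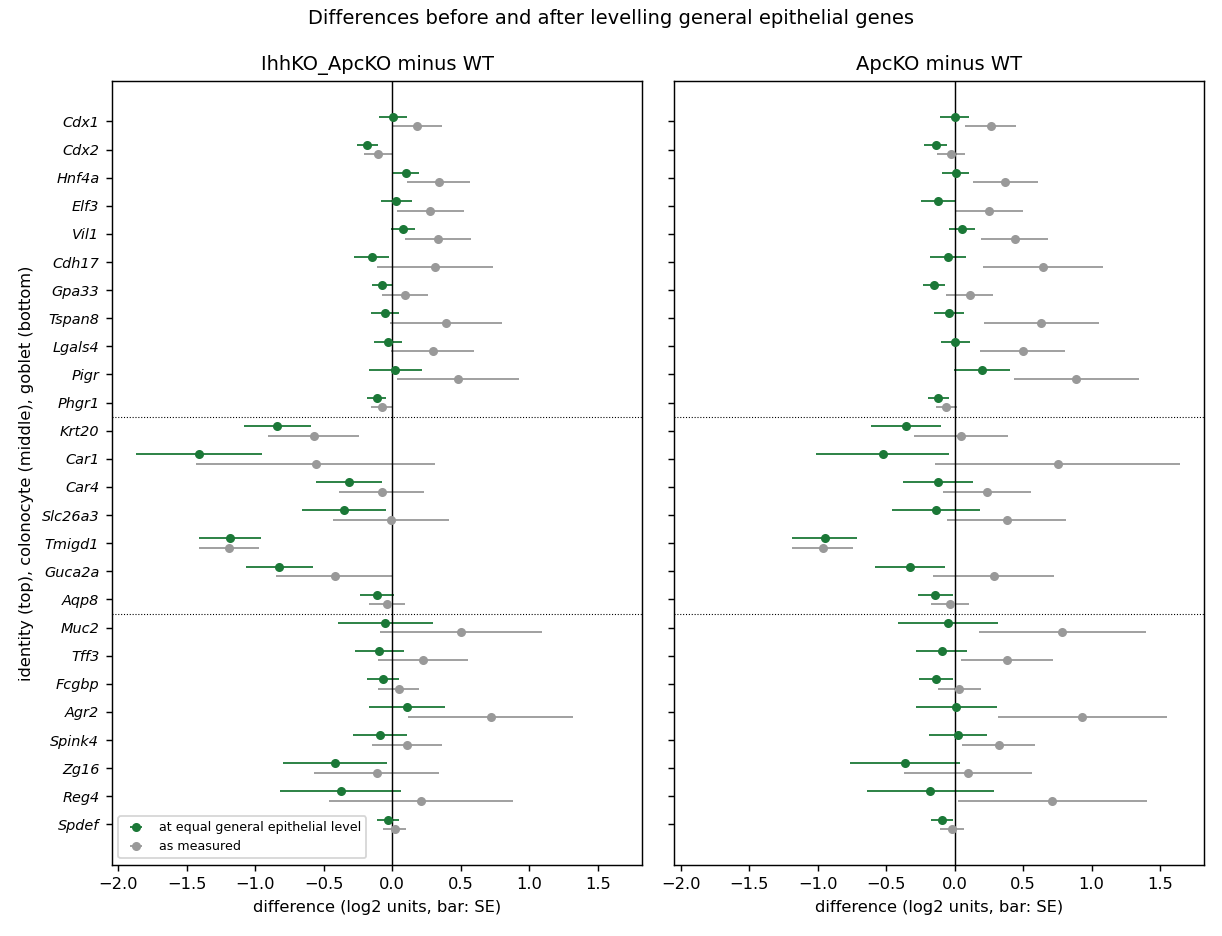
Differences in log2 units (points, with the SE as bars) of the identity, colonocyte and goblet genes in IhhKO_ApcKO minus WT (left) and ApcKO minus WT (right), as measured (grey) and at an equal general epithelial level (green). With the covariate the identity and goblet genes lie between -0.42 and 0.20, the 6 other colonocyte genes between -1.41 and -0.11, and Tmigd1 at -1.18 and -0.95, close to its values as measured.

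The code letter bears on these values. With the letter as a block, ApcKO minus WT rests on A9 and IhhKO_ApcKO minus ApcKO on B9, and at an equal general level 3 of 6 colonocyte genes were then negative in ApcKO minus WT, 4 of 6 in IhhKO_ApcKO minus WT and 4 of 6 in IhhKO_ApcKO minus ApcKO. Krt20 was at 0.76 in ApcKO minus WT and at 1.11 in IhhKO_ApcKO minus WT in that fit. Array A9 had the highest Krt20 level of all 24 arrays, 7.71. Letter and genotype can hardly be told apart in this design.

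Colonocyte genes outside the 34 were counted in the same way. Of the 24 measured other colonocyte genes, 7 (29.2%) had positive differences at an equal general level in ApcKO minus WT (median -0.12), against 38.4% of all genes. There were 4 (16.7%) in IhhKO_ApcKO minus WT (median -0.15), against 43.5% of all genes, and 7 (29.2%) in IhhKO_ApcKO minus ApcKO (median -0.03), against 57.4%. Other lists had low shares too: in ApcKO minus WT, 3 of 15 other goblet genes, 1 of 9 endothelial genes and 1 of 10 mesothelial genes had positive differences. Cyp2c55, a cytochrome P450 of the colon, was lowest, at -1.55 (SE 0.45, adjusted p = 0.25) in IhhKO_ApcKO minus WT and -1.18 (SE 0.47, adjusted p = 0.83) in ApcKO minus WT. Selenbp1, a selenium-binding protein, was the 1 gene of this list to pass. It had a lowest, median and highest level of 8.73, 9.16 and 9.31 in IhhKO_ApcKO, 9.30, 9.39 and 9.52 in ApcKO and 9.35, 9.46 and 9.69 in WT. It was lower in IhhKO_ApcKO than in WT by a difference of -0.35 as measured (SE 0.07, adjusted p = 0.042) and -0.38 at an equal general level (SE 0.07, adjusted p = 0.026), and all 9 IhhKO_ApcKO arrays lay under every WT array. Its r with Epcam, after group means were removed, was 0.361, and its slope on the general level was 0.059. The call as measured held in 14 of 31 alternatives (limma adjusted p of 0.0243 to 0.567). It was lost with each array centred on its median (adjusted p = 0.19), with array weights (adjusted p = 0.064), with only the compared genotypes fitted (adjusted p = 0.15), with the letter as a block (adjusted p = 0.57), and without WT A2, A3, A4, A5, A6 or A8, ApcKO B2, B3 or B5, or IhhKO_ApcKO C1, C4, C7 or C9. At an equal general level it held in 25 of 32. It was lost there with median centring (adjusted p = 0.14), with only the compared genotypes (adjusted p = 0.11), with the letter as a block (adjusted p = 0.60), and without WT A6 or IhhKO_ApcKO C1, C3 or C4.

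The 17 measured crypt stem and Apc-loss genes, which include the stem cell receptor Lgr5 and the Wnt target Axin2, averaged 6.43 ± 0.06 in IhhKO_ApcKO (SD, n = 9), 6.43 ± 0.05 in ApcKO (n = 8) and 6.44 ± 0.07 in WT (n = 7). None passed the limma test in any of the 3 contrasts, and the median difference in ApcKO minus WT was 0.0008. The list mixes dim and bright genes, such as Lgr5 (mean 4.07 in ApcKO) and Myc (9.12). No relation of its mean with the general epithelial level was detected (r = 0.176, adjusted permutation p = 0.512). It therefore cannot show whether crypt genes changed in the epithelium carried over. Among enteroendocrine and tuft genes, Cck, the hormone cholecystokinin, was lower in IhhKO_ApcKO than in WT, at -0.36 (SE 0.07, adjusted p = 0.043), with an r with Epcam of -0.045 after group means were removed. That call held in 9 of 31 alternatives (adjusted p of 0.00552 to 0.237). At an equal general level the difference was again -0.36 (SE 0.07, adjusted p = 0.06), with a call in 4 of 32 alternatives (adjusted p of 0.00885 to 0.376).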

How the data were processed

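Per the submitters' processing notes, the deposited log2 values were made by the authors with RMA, which corrects background, equalises the arrays by quantiles and summarises probe sets. For the software version and the build of the array annotation: not given in the sources used here. The table held 72688 probe sets. Transcript clusters with 1 gene symbol (31388) were kept, with 853 symbols updated by Entrez ID, and the brightest probe set by mean was used for each of 30827 genes. No filter on dim genes was applied. No 2 arrays were identical. Arrays report no counts, so their number limits the precision.

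Genotypes were compared in 1 limma model over all 24 arrays (limma 3.58.1, R 4.3.3), with Benjamini-Hochberg adjustment over all genes and a threshold of 0.05. A second model added the array mean of the 8 junction and keratin genes. Correlations used two-sided permutation tests with 100000 resamples (Python 3.11.15, scipy 1.17.1, numpy 2.4.6, pandas 2.3.3). The models and the permutation test were tested on simulated data with known changes.

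The text names all 34 genes, gives 10 in full (Epcam, Krt8, Krt20, Tmigd1, Slc26a3, Car1, Aqp8, Guca2a, Muc2 and Zg16), and names the 10 other genes most like Epcam and list genes that pass or lie at the end of their list. The genes and lists were chosen with earlier results of these data known. Alternatives were median centring, the upper 50% of genes by mean, a trended robust prior, array weights, only the compared groups, the mean of probe sets, the code letter as a block and each array left out. A covariate from 20 other epithelial genes was added after seeing the data. Promoters come from RefSeq tables on GRCm38.p6.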

Additional observations from a re-analysis of the deposited data

Results flagged for a closer look

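In 6 of 102 groups of 1 gene in 1 genotype, a single array lay apart from the others by Dixon's criterion, which chance alone meets in about 1 in 20 groups. Slc26a3 was at 7.05 on WT A6, against 4.39 to 5.34 on the other WT arrays. Fcgbp was at 7.05 on WT A1, against 6.06 to 6.25. Car4 was at 5.69 on WT A3, below the others at 6.41 to 6.85. Aqp8 was at 6.0 on ApcKO B8, the ApcKO array with the most Epcam, against 4.73 to 5.07. Phgr1 was at 6.08 and Spdef at 7.23 on IhhKO_ApcKO C9, the array with the highest general epithelial level, against 5.48 to 5.75 and 6.51 to 6.86 on the other arrays of that genotype.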

How the results depend on the processing

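Of the epithelial genes other than Tmigd1, 0 were called in any contrast, with or without the covariate, under any alternative run. No paired analysis was possible because the sample codes are not shared between the genotypes. With the letter as a block, where ApcKO minus WT rests on A9 and IhhKO_ApcKO minus ApcKO on B9, signs turned as measured for 25 of the 34 genes in IhhKO_ApcKO minus ApcKO, 7 in IhhKO_ApcKO minus WT and 3 in ApcKO minus WT, and at an equal general level for 14, 13 and 8 of 26 genes. Of the 10 genes given in full, they turned in IhhKO_ApcKO minus ApcKO for Epcam (0.44), Krt8 (0.37), Krt20 (0.58), Car1 (1.14), Tmigd1 (0.57), Aqp8 (0.050), Muc2 (0.63) and Zg16 (0.15). In IhhKO_ApcKO minus WT they turned for Krt20 (2.02), Car1 (3.28), Slc26a3 (0.62), Guca2a (1.502) and Zg16 (1.33), and at an equal general level, where Krt20, Car1, Guca2a and Tmigd1 were followed, for Krt20 (1.11) and Car1 (0.020), with Tmigd1 at -0.24. In ApcKO minus WT at an equal general level they turned for Krt20 (0.76) and Guca2a (0.34). Array weights turned Krt20 (-0.23) and Zg16 (-0.26) in ApcKO minus WT, and median centring turned Slc26a3 (0.017) in IhhKO_ApcKO minus WT. The cause was not tested.

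With each array left out in turn, some differences changed sign. Over all 34 genes and 24 arrays there were 19 such changes in ApcKO minus WT, 58 in IhhKO_ApcKO minus ApcKO and 23 in IhhKO_ApcKO minus WT, and 60, 52 and 28 over the 26 genes at an equal general level. Among the 10 genes given in full they ran in ApcKO minus WT from -0.155 to 0.27 for Krt20, -0.17 to 0.020 for Aqp8 and -0.16 to 0.43 for Zg16. In IhhKO_ApcKO minus ApcKO they ran from -0.068 to 0.13 for Aqp8 and -0.58 to 0.036 for Muc2, and in IhhKO_ApcKO minus WT from -0.23 to 0.31 for Slc26a3, -0.10 to 0.014 for Aqp8 and -0.37 to 0.22 for Zg16. The colonocyte minus general level kept its sign, at -0.46 to -0.28 in ApcKO minus WT, -0.44 to -0.19 in IhhKO_ApcKO minus ApcKO and -0.79 to -0.58 in IhhKO_ApcKO minus WT. Counts over all genes were less stable: the 14 genes called in IhhKO_ApcKO minus ApcKO became 65 with array weights, 23 in the upper 50% of genes, 8 with median centring and 53 with the letter as a block. The 25 called in IhhKO_ApcKO minus WT became 45, 37, 16 and 84 under the same settings and 7 with only those genotypes fitted. In ApcKO minus WT, 0 became 113 with the letter as a block. With 1 array left out, the 14 ran between 8 and 41, with 41 without B9, 25 without A9 and 8 or 9 without B4, B5, C1, C6 or C7. The 25 ran between 12 and 67, with 67 without B9 and 12 to 16 without WT A1, A4, A5, A6 or A8 or IhhKO_ApcKO C4, C6 or C7. At an equal general level the 18 ran between 10 and 58 and the 17 between 6 and 77, both highest without B9.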
